A study of Mus musculus with 12 samples.

Results

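The genes described here are those that build the red blood cell: erythroid transcription factors, enzymes of haem synthesis, iron importers, proteins of the red cell membrane and its skeleton, blood group and transport proteins, late red cell genes, and the globins. They were chosen by symbol, by a rule that uses no measured value, although earlier results of these data were known when the list was drawn up. The list names 34 genes, of which 33 had a row in both tables (Ahsp was not analysed here), and every symbol starting with Hba- or Hbb- added 10 globin rows. This gave 43 rows of 24444 genes.

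Bone marrow RNA of C57BL/6 mice was sequenced in 12 libraries, 3 in each of 4 groups. W-old (replicates 1, 6 and 7) came from Hopx-wildtype and H-old (replicates 3, 9 and 10) from Hopx-knockout mice, both labelled aged with an age of 18 weeks and without MN1. W-MN1 (replicates 2, 3 and 4) was Hopx-wildtype and H-MN1 (replicates 5, 7 and 8) Hopx-knockout, both with MN1 overexpression and an age of 16 weeks. Hopx is an atypical homeodomain protein without DNA binding of its own, and MN1 is a coregulator of transcription that causes myeloid leukaemia in mice when overexpressed in marrow cells. The labels do not name the vector, promoter or target cells of the MN1 overexpression, a sort of the marrow cells, a removal of red cells, or the sex of the mice. Nothing in them says that the replicates came from separate mice, so p-values measure the spread between these samples, which may be technical.

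Red cells form in the marrow from committed progenitors that pass through erythroblast stages, fill with haemoglobin and expel their nucleus. Gata1 and Klf1 activate most of the genes of this programme through GATA and CACCC elements, and erythropoietin signalling keeps the progenitors alive. Haem is made by a chain of enzymes that starts with Alas2 in the mitochondrion and ends there with Fech, and its iron enters the cell through the transferrin receptor Tfrc. The finished cell is held in shape by a spectrin lattice that ankyrin and protein 4.1 tie to band 3 in the membrane.

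To show what the named regulators and globins carry upstream, windows of 6 members are printed from the RefSeq promoter table (GRCm38.p6). They are written 5′ to 3′ on the strand of the gene. Each holds the 250 bases before the RefSeq start, and the distances given below count from that start. The gene positions given below are from GENCODE and have other starts. By them all 6 windows overlap the gene, and the Gata1 window lies inside it (7959260 to 7978071). Capitals mark matches on either strand to motifs that erythroid factors bind. The GATA motifs searched were AGATAA and its close variant TGATAA, and the element of Klf1-like factors was CACCC. The motif of Nfe2, spelled TGACTCA, was searched as well and is not in these 6 windows. The windows lie at chr11:32283422-32283671 (plus strand) for Hba-a1, chr7:103827929-103828178 (minus) for Hbb-bs, chr7:103813924-103814173 (minus) for Hbb-bt, chrX:7967911-7968160 (minus) for Gata1, chr8:84901732-84901981 (plus) for Klf1 and chrX:150547167-150547416 (plus) for Alas2.
Hba-a1: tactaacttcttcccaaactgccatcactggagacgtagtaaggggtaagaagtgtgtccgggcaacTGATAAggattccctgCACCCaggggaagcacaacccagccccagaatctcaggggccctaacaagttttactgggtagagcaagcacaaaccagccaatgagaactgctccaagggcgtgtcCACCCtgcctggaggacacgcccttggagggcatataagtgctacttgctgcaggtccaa
Hbb-bs: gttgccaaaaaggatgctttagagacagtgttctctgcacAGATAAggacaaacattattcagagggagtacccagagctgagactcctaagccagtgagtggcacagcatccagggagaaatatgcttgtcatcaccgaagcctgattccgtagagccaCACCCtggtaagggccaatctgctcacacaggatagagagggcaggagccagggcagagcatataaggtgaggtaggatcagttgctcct
Hbb-bt: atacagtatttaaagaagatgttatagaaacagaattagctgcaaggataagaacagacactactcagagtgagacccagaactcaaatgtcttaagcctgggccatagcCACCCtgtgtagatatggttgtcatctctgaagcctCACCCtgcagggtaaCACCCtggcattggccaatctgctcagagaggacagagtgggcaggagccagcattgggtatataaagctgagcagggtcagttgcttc
Gata1: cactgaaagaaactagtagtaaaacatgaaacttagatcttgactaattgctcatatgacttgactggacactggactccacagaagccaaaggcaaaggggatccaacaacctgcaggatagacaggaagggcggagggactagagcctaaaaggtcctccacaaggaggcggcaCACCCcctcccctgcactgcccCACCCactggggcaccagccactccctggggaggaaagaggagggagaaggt
Klf1: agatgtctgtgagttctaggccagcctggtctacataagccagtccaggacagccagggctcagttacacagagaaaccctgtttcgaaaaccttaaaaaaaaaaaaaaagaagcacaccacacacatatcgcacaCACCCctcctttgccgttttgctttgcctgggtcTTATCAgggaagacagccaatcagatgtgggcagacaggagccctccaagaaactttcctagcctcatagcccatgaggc
Alas2: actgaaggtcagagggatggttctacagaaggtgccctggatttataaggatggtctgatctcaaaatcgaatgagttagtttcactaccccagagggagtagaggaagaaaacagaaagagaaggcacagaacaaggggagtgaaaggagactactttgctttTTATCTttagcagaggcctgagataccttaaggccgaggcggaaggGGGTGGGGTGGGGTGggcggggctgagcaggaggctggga

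In the Hba-a1 window a TGATAA lies 183 to 178 bases before the start and 2 CACCC copies lie nearer to it. The Hba-a2 window holds the same letters over all 247 bases that could be compared at an offset of 3. The Hbb-bs window has 1 AGATAA and 1 CACCC, the Hbb-bt window 3 CACCC and no GATA motif, and the Gata1 window 2 CACCC and no GATA motif. In the Klf1 window the reverse complement TTATCA lies 80 to 75 bases before the start, and in Alas2 TTATCT lies 86 to 81 bases before it, upstream of 3 adjoining GGGTG. Of 35 windows found for 30 members, 17 (48.6%) held AGATAA or TGATAA, against 16.6% of all 32841 windows in the table. CACCC was in 23 of the 35 (65.7%) and in 52% of all windows, a GATA motif together with CACCC in 13 (37.1%) and 7.11%, and the Nfe2 motif in 2 (5.71%) and 4.46%. A match describes letters in a window, and binding was not measured.

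Library totals ran from 16544407 to 28409046 counts, and no pair of libraries held identical values. Levels are given as CPM (counts scaled to 1000000 per library). Hopx stood at 14.2, 33.6 and 15.3 CPM in W-old, at 0, 0 and 0.121 in H-old, at 27.9, 14.1 and 25.6 in W-MN1 and at 3.5, 3.51 and 2.92 in H-MN1. The libraries labelled H-MN1 thus held more Hopx than those labelled H-old, the other knockout group (log2 fold change 6.10, edgeR adjusted p = 0.00119), and less than every W-MN1 library. Mn1 stood between 0.0704 and 1.18 CPM in the 6 libraries without MN1, at 47.3, 46.3 and 22.1 CPM in H-MN1, and at 36.4 CPM in W-MN1 replicate 3. In the libraries labelled W-MN1 replicates 2 and 4 it was 0.395 and 0.160 CPM, which goes against their label. Of the 7 marker lists of other marrow cells, the neutrophil list was the highest in every library, at 26536 to 126233 CPM.

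Among the 6 libraries without MN1, the genes of red cell formation were mostly lower in H-old than in W-old. The estimate was below 0 for 34 of the 38 members that passed the low-count filter. By edgeR's quasi-likelihood test with Benjamini-Hochberg adjustment over all 12771 genes tested, at 0.05, 21 members were lower, 1 was higher and 16 did not pass. Over all genes, 15.8% were called lower and 15.6% higher (31.4% in either direction). The median log2 fold change of the members was -1.34, against -0.02 over all genes tested. All 3 H-old libraries lay below all 3 W-old libraries for 29 of the 38 in CPM, where 38.4% of all genes did, and for 27 on the TMM scale (library totals corrected by the trimmed mean of ratios), where 25.9% did. In bulk marrow, fewer erythroid cells and less of these RNAs per cell cannot be told apart.

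**Figure D1:**
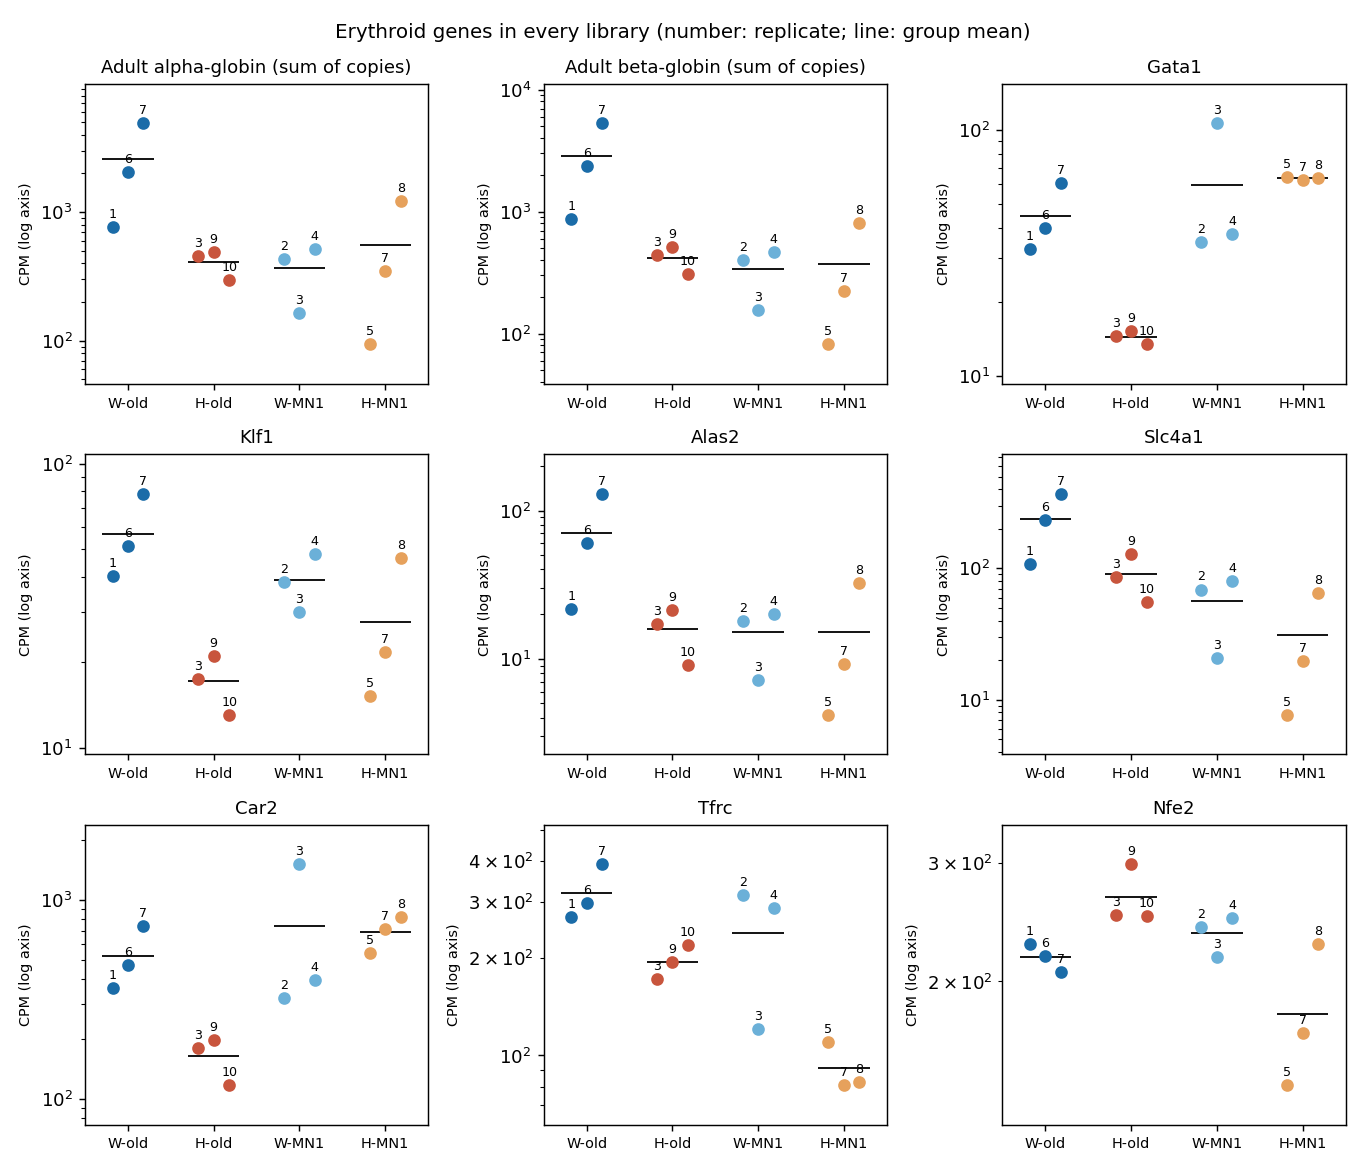
Levels of 7 named members and of the summed adult alpha- and beta-globin copies in each of the 12 libraries, as CPM on a log axis, by group (W-old, H-old, W-MN1, H-MN1); each point is a library with its replicate number and each line the arithmetic mean of 3. For Gata1, the H-old points (13.5 to 15.3 CPM) lie below every other library, while the alpha copies span 767 to 4895 CPM within W-old.

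Of the transcription factors, Gata1, the master regulator of the erythroid and megakaryocyte lineages (GRCm38 X, 7959260 to 7978071, minus strand), stood at 32.7, 39.7 and 60.9 CPM in W-old and at 14.5, 15.3 and 13.5 CPM in H-old. The groups did not overlap, and the H-old libraries differed little among themselves. The log2 fold change was -1.43 ± 0.21 (SE; edgeR adjusted p = 0.00218). Klf1, which activates the adult beta-globin genes (8, 84901928 to 84905291, plus strand), read 40.2, 51.2 and 78.2 CPM in W-old and 17.5, 21.2 and 13.1 CPM in H-old, again without overlap (-1.51 ± 0.27, adjusted p = 0.00649). Nfe2, a subunit of the DNA-binding factor NF-E2, which acts at the beta-globin locus control region and in platelet formation, moved the other way. It stood at 228, 218 and 207 CPM in W-old and at 252, 299 and 250 CPM in H-old (0.48 ± 0.13, adjusted p = 0.0223). Nfe2 was the single member called higher. Its call was lost without W-old replicate 6, W-old replicate 7 or H-old replicate 9, and with library totals alone in place of TMM.

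The globins had the largest differences. Hba-a1, an adult alpha-globin gene (11, 32283511 to 32284465, plus strand), stood at 736, 1948 and 4660 CPM in W-old and at 438, 465 and 279 CPM in H-old. Hbb-b1, an adult beta-globin row, stood at 641, 1772 and 4132 CPM in W-old and at 308, 364 and 214 CPM in H-old. W-old replicate 7 was far above the other W-old libraries, and W-old replicate 1 came nearest to H-old, but no group overlapped for these 2 rows. The log2 fold changes were -2.44 ± 0.69 for Hba-a1 (edgeR adjusted p = 0.0454) and -2.68 ± 0.70 for Hbb-b1 (adjusted p = 0.036).

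Hba-a2, the neighbouring copy of Hba-a1 (11, 32296489 to 32297298, plus strand), stood at 30.7, 113 and 235 CPM in W-old and at 16.7, 21.4 and 15.9 CPM in H-old, and did not pass (-2.60 ± 0.75, adjusted p = 0.0522). Hbb-bt and Hbb-b2 carried the same value in every library, 115, 290 and 580 CPM in W-old and 65.8, 73.0 and 48.0 CPM in H-old (-2.20 ± 0.59, adjusted p = 0.0409), so they hold 1 measurement, which the 21 lower members count in both rows. With both rows, the counts of the adult beta rows summed to within 0.01 of a whole number in all 12 libraries, and with 1 of the 2 left out to within 0.05 in 1 library. Since the rows hold equal values, the sums fit reads divided equally between them, so that a sum over both counts each read once. Hbb-bs had counts in W-old replicate 1 and W-MN1 replicate 2 alone, at 4.26 and 4.90 CPM, and was not tested. The gene annotation used for positions held 41 of the 43 members, and among the adult beta rows it held Hbb-bs and Hbb-bt but not Hbb-b1 or Hbb-b2. The adult beta rows may therefore not all be separate genes, and the levels of Hbb-b1 and Hbb-bs may not be those of different genes. The copies within each chain are nearly identical in sequence, so the division of reads among them is uncertain, and sums by chain are given next.

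Summed over the alpha copies, the level was 767, 2061 and 4895 CPM in W-old and 455, 486 and 295 CPM in H-old, with a log2 fold change of -2.44 ± 0.68 (edgeR adjusted p = 0.043). The beta copies summed to 877, 2352 and 5291 CPM in W-old and to 440, 510 and 310 CPM in H-old (-2.56 ± 0.66, adjusted p = 0.0333). The estimates of the 2 chains differed by less than their SEs, which do not measure a difference between chains within a library. The ratio of alpha to beta copies in each library is given below and was not tested. All adult globins together made up 0.164, 0.441 and 1.02% of the counts in W-old and 0.0895, 0.0996 and 0.0605% in H-old. The W-old libraries differed 6.20-fold from lowest to highest in this sum, and the H-old libraries 1.64-fold. Each globin call was lost without W-old replicate 6, without any 1 of the H-old libraries, or with no low-count filter, and those of Hba-a1, Hbb-b2 and Hbb-bt also with limma-trend or library totals alone. The embryonic globins Hba-x, Hbb-bh1, Hbb-bh2 and Hbb-y stayed too low to test, with a summed level of at most 0.783 CPM in any of the 12 libraries.

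Every one of the 7 haem synthesis enzymes had an estimate below 0, and 3 passed. Alad, which joins aminolevulinic acid into porphobilinogen, stood at 35.0, 56.8 and 84.8 CPM in W-old and at 21.5, 23.7 and 16.9 CPM in H-old (-1.31 ± 0.31, edgeR adjusted p = 0.0203). Uros, which closes the porphyrin ring, stood at 21.2, 31.5 and 41.3 CPM in W-old and at 12.8, 12.3 and 11.7 CPM in H-old (-1.17 ± 0.21, adjusted p = 0.00432). Urod, the next enzyme, stood at 64.1, 78.2 and 106 CPM in W-old and at 42.1, 42.8 and 43.3 CPM in H-old (-0.77 ± 0.16, adjusted p = 0.00771). For these 3 enzymes no H-old library reached the lowest W-old library, and Uros and Urod varied little within H-old. Uros overlaps the antisense gene Bccip, and it is 1 of 11 members that overlap an antisense gene, with Alas2, Cpox, Ppox, Add2, Ank1, Epb41, Sptb, Tmod1, Slc25a37 and Xpo7. Whether counting used the strand is not given in the sources used here, so reads of these genes and their antisense partners may not be separated.

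Alas2, the erythroid enzyme that sets the rate of haem synthesis (X, 150547375 to 150570638, plus strand), had the largest estimate of the haem enzymes and did not pass. It stood at 21.6, 60.5 and 130 CPM in W-old and at 17.2, 21.3 and 9.01 CPM in H-old (-1.94 ± 0.72, edgeR adjusted p = 0.1). H-old replicate 9 nearly reached W-old replicate 1 in CPM, and on the TMM scale the groups overlapped. Cpox, which makes protoporphyrinogen, stood at 79.9, 99.1 and 153 CPM in W-old and at 70.3, 65.2 and 41.8 CPM in H-old (-0.72, adjusted p = 0.0866). Fech, which inserts the iron, and Ppox, the enzyme before it, had estimates of -0.63 and -0.12 and did not pass.

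For iron import, Tfrc (16, 32608920 to 32632794, plus strand) stood at 269, 297 and 391 CPM in W-old and at 173, 195 and 219 CPM in H-old, without overlap (-0.52 ± 0.16, edgeR adjusted p = 0.0328). Its call was lost without W-old replicate 6 or 7, or H-old replicate 3 or 9. Slc25a37, the mitochondrial iron importer mitoferrin, stood at 115, 146 and 194 CPM in W-old and at 152, 146 and 120 CPM in H-old, and the groups overlapped (0.06, adjusted p = 0.81). With library totals alone the estimates of Slc25a37 and, among the late genes, Bnip3l fell below 0.

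Of the 8 members of the membrane and its skeleton, 1 passed (12.5%), where 15.8% of all genes were called lower. All 8 estimates were below 0, with a median of -1.16. That member was Dmtn, dematin, which bundles actin at the spectrin junctions. It stood at 11, 22.2 and 37.0 CPM in W-old and at 8.34, 8.52 and 5.98 CPM in H-old (-1.42 ± 0.42, edgeR adjusted p = 0.0411), and its call was lost on leaving out any 1 library except W-old replicate 1. Slc4a1, band 3, the anion exchanger (11, 102348824 to 102366203, minus strand), stood at 108, 234 and 370 CPM in W-old and at 86.1, 129 and 55.1 CPM in H-old. H-old replicate 9 lay above W-old replicate 1, and the difference did not pass (-1.19 ± 0.53, adjusted p = 0.147). Epb41, protein 4.1, stood at 139, 151 and 194 CPM in W-old and at 144, 150 and 125 CPM in H-old, and the groups overlapped (-0.02, adjusted p = 0.911). Ank1 (ankyrin), Sptb (beta-spectrin), Epb42 (protein 4.2), Add2 (beta-adducin) and Tmod1 (the tropomodulin that caps the short actin filaments) had estimates from -1.40 to -0.84 that did not pass.

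All 7 blood group and transport genes were lower, with a median of -1.48. Car2, a carbonic anhydrase that is also found outside the red cell (3, 14886273 to 14900770, plus strand), stood at 360, 474 and 737 CPM in W-old and at 180, 197 and 117 CPM in H-old (-1.48 ± 0.29, edgeR adjusted p = 0.00906). Aqp1, the water channel that carries the Colton blood group (6, 55336432 to 55348555, plus strand), stood at 209, 258 and 419 CPM in W-old and at 78.1, 106 and 62.3 CPM in H-old (-1.65 ± 0.31, adjusted p = 0.00963). Rhd, the Rhesus protein (4, 134864536 to 134896172, plus strand), stood at 38.4, 59.9 and 102 CPM in W-old and at 16.2, 22.9 and 15 CPM in H-old (-1.68 ± 0.38, adjusted p = 0.0205). None of these 7 genes had overlapping groups. The others were Car1, the red cell carbonic anhydrase (-1.52), Ermap, the Scianna blood group protein (-1.41), Kel, the Kell blood group protein (-1.37), and Rhag, the Rhesus-associated channel (-1.24).

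Of the 6 late red cell genes, 3 were lower. Tspo2, a cholesterol-binding protein of erythroblasts (17, 48447907 to 48451522, minus strand), stood at 7.16, 8.97 and 14.4 CPM in W-old and at 3.29, 3.2 and 2.48 CPM in H-old (-1.57 ± 0.27, edgeR adjusted p = 0.0034). Hemgn, hemogen, a nuclear protein of erythroid precursors, stood at 56.8, 78.3 and 130 CPM in W-old and at 24.6, 35.5 and 18.3 CPM in H-old (-1.55, adjusted p = 0.0266). Bpgm, which makes the 2,3-bisphosphoglycerate that lowers the oxygen affinity of haemoglobin, was the third gene that passed (-1.10). Bnip3l and Xpo7, the late genes with the highest mean CPM over all 12 libraries, did not pass. Bnip3l, also called Nix, which clears mitochondria from reticulocytes and is active in many cell types, stood at 235, 209 and 229 CPM in W-old and at 189, 229 and 192 CPM in H-old (0.04, adjusted p = 0.827). Xpo7, an exportin, stood at 61.6, 63.9 and 62.3 CPM in W-old and at 79.5, 57.9 and 58.8 CPM in H-old (0.23, adjusted p = 0.141). Trim10, a late erythroid ubiquitin ligase, had an estimate of -1.51 and did not pass (adjusted p = 0.0575).

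**Figure D2:**
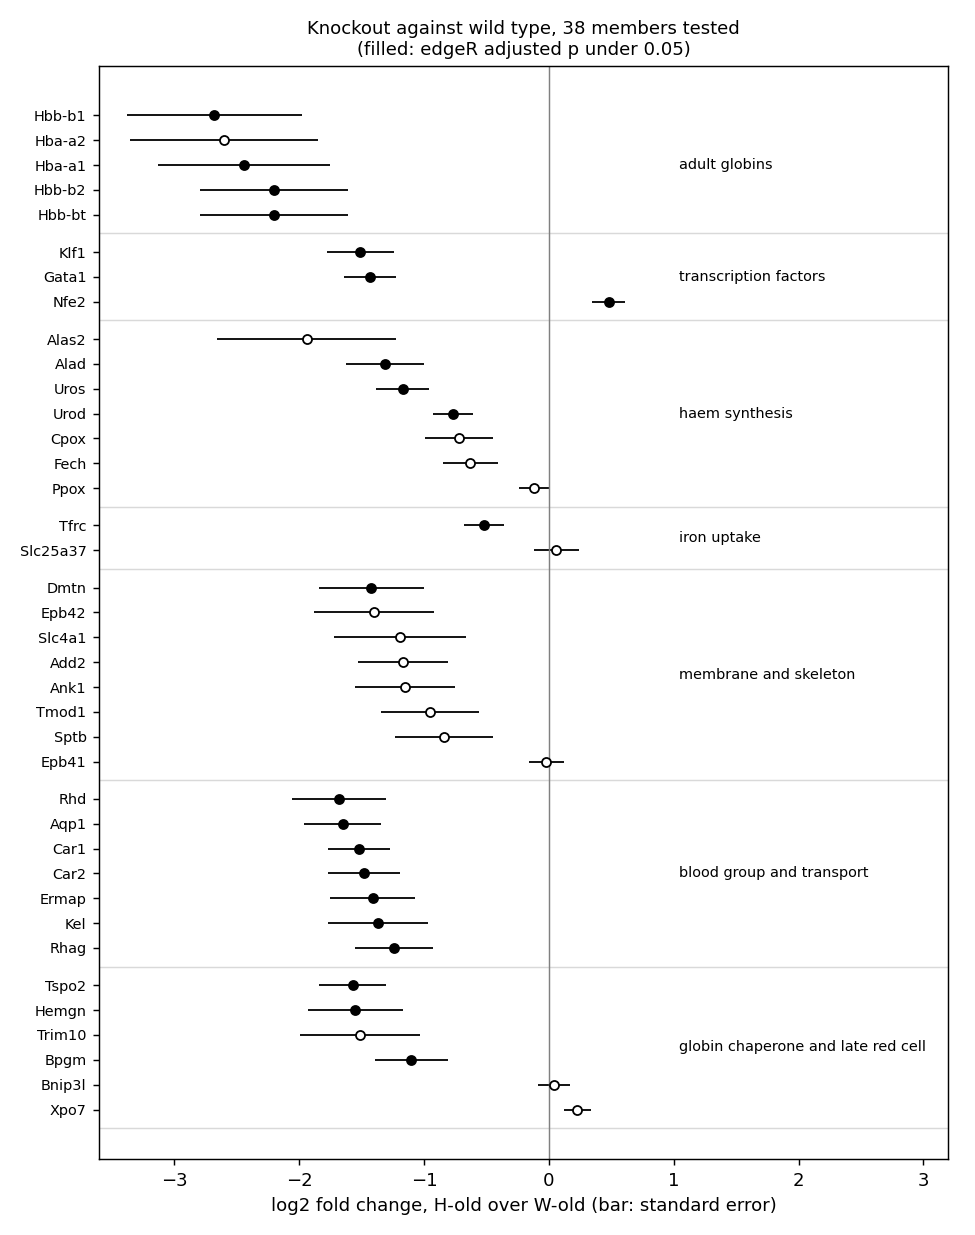
Log2 fold change of each tested member, H-old against W-old, by role, with bars of 1 SE and filled points for members past an edgeR adjusted p of 0.05. The adult globins lie farthest below 0 (-2.68 to -2.20), and Nfe2 (0.48) is the single call above 0.

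The libraries kept a common order over the members. W-old replicate 7 was the highest of the 6 libraries for 30 of the 33 members other than globins, H-old replicate 10 was the lowest for 26, and W-old replicate 1 was the lowest of its group for 30. The count of calls depended on single libraries. Leaving out W-old replicate 6 left 8 members past the threshold, leaving out H-old replicate 3 left 9, and leaving out H-old replicate 10 left 11. A fit of the same contrast on all 12 libraries, whose other groups vary more, left 1, Gata1. Those that passed with each library left out in turn were Gata1, Klf1, Uros, Urod, Aqp1, Car1, Car2 and Tspo2. Alad, Rhag, Rhd and Hemgn were lost without W-old replicate 6, H-old replicate 3 or H-old replicate 10, Ermap without the former pair, Bpgm without W-old replicate 6 or any H-old library, and Kel without any library except W-old replicate 1. With no low-count filter the calls of Dmtn, Kel and Hemgn were lost, and with limma-trend that of Dmtn.

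Further genes of the pathway, none of them members, were less uniform. Of 63, 62 were tested, 27 were lower (43.5%) and 7 higher (11.3%), with a median of -0.45. Of all genes, 15.8% were lower and 15.6% higher, so the share of higher calls was below that of all genes. With library totals alone in place of TMM, the split was 34 lower and 2 higher, and 21 in all passed without W-old replicate 7 or without H-old replicate 3. Of 15 genes of erythroid transcription and erythropoietin signalling, 8 were lower (53.3%) and 2 higher (13.3%). E2f2, a cell cycle factor of erythroblasts and other dividing cells, stood at 211, 227 and 223 CPM in W-old and at 307, 302 and 270 CPM in H-old (0.59, edgeR adjusted p = 0.00432). Foxo3, which drives antioxidant genes, was the other that rose (0.53, adjusted p = 0.0188). Lmo2, a bridging partner of Gata1 and Tal1, was lower (-0.39, adjusted p = 0.0156), and Stat5b, a signal transducer of the erythropoietin receptor, did not pass (0.28). Chosen after their values were seen, Epor, the erythropoietin receptor, stood at 14.0, 22.0 and 31.3 CPM in W-old and at 8.84, 6.86 and 5.08 CPM in H-old (-1.51, adjusted p = 0.0074), and Gfi1b, a repressor of the erythroid and megakaryocyte lineages, was lower by more (-1.69, adjusted p = 0.00201).

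Of 15 other membrane genes, 5 were lower (33.3%) and 3 higher (20%), against 15.8% and 15.6% of all genes. The higher genes were Cd44 (0.49), the hyaluronan receptor, Add1 (0.36), alpha-adducin, and Mpp1 (0.37), the p55 protein of the membrane skeleton, which many other blood cells also express. Stom, stomatin, did not pass (0.06). Of 17 other haem and iron genes, 7 were lower (41.2%) and 0 higher. The most abundant of them, the ferritin chains Ftl1 (-0.13) and Fth1 (0.03) and the ferritin receptor Ncoa4 (0.22), did not pass. Of 15 tested genes of red cell metabolism and maturation, 7 were lower (46.7%) and 2 higher (13.3%). The lower genes included the peroxiredoxin Prdx2 (-1.17, edgeR adjusted p = 0.00873). Higher were the nucleotidase Nt5c3 (0.74, adjusted p = 0.00316) and the autophagy kinase Ulk1 (0.45, adjusted p = 0.0103). The glutathione peroxidase Gpx1 (0.10) and the ubiquitin ligase Mkrn1 (-0.08) did not pass.

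Markers of other marrow cells were read in the same comparison, where 15.8% of all genes were called lower and 15.6% higher. The 7 B cell markers were all lower, and their summed level was 312 to 742 CPM in W-old and 19.0 to 28.7 CPM in H-old. The 7 megakaryocyte and platelet markers, whose lineage shares Gata1, Nfe2 and Gfi1b with red cells, were all lower too (231 to 288 CPM and 49.1 to 105 CPM). The 3 eosinophil markers, a lineage that also uses Gata1, were lower (1951 to 3074 CPM and 461 to 1048 CPM). Of 4 basophil and mast cell markers 1 was lower (530 to 1007 CPM and 163 to 371 CPM), and of 4 endothelial markers 1 was lower (57.9 to 66.8 CPM and 29.7 to 50.9 CPM). With 4 genes each, the calls of these lists do not set them apart from all genes. Of 9 markers of the macrophages at the centre of erythroblastic islands, 5 were lower, Vcam1, Cd163, Spic, Siglec1 and Mertk, while the summed level overlapped (493 to 597 CPM and 385 to 556 CPM). Of 11 neutrophil markers 8 were higher (81121 to 103846 CPM and 106211 to 126233 CPM). Vpreb1 was at 0 in H-old replicate 3, and every other marker had counts in all 12 libraries. The part of these cells in the result was not tested.

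**Figure D3:**
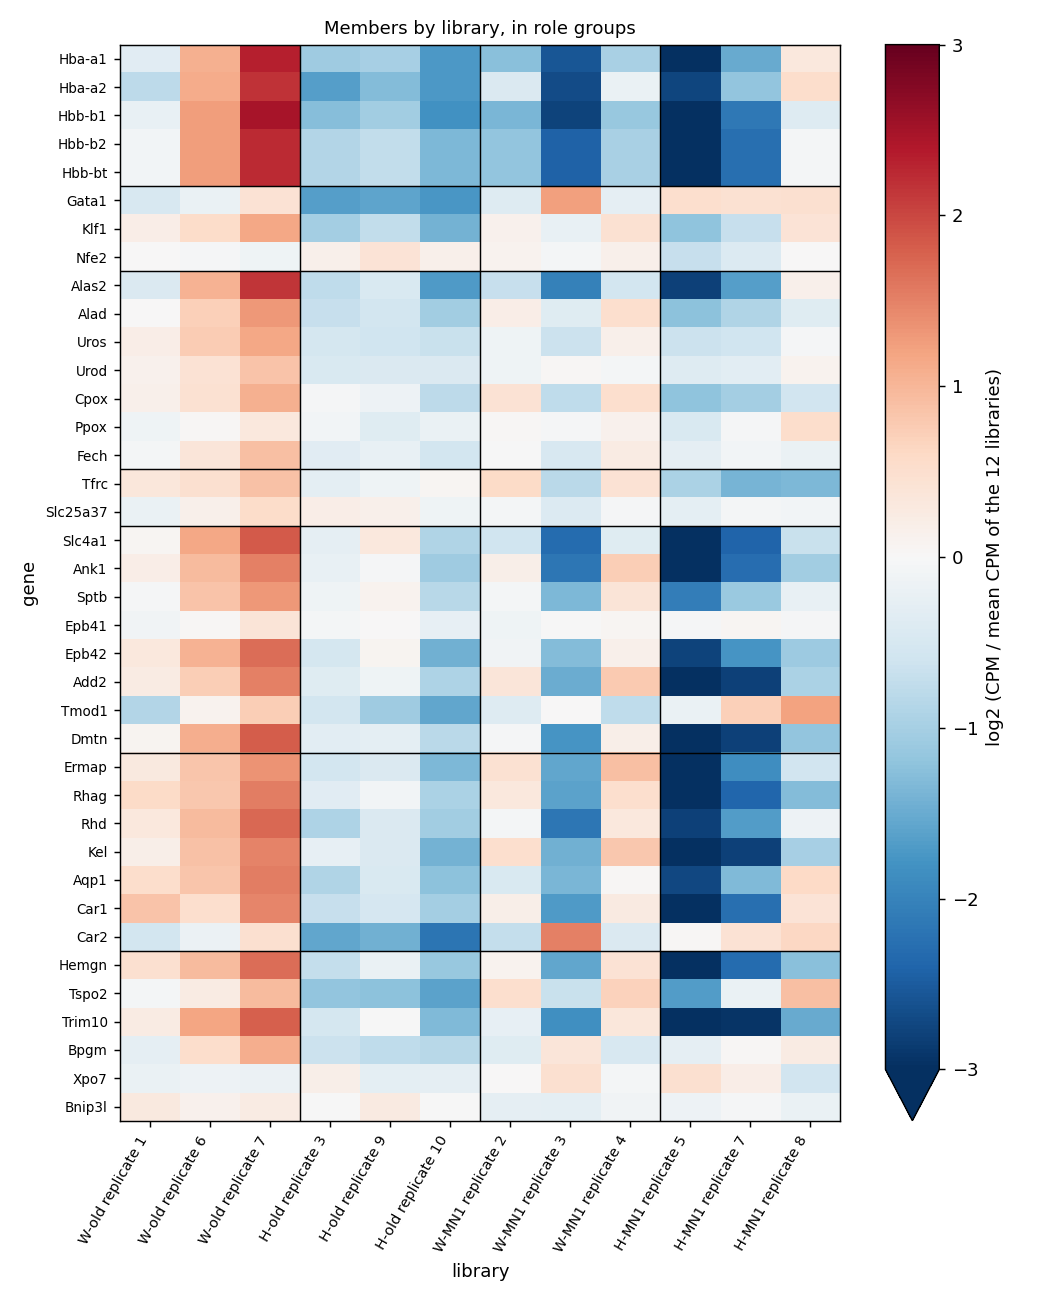
Log2 ratio of each member's CPM in each of the 12 libraries to its mean over all 12, with the colour scale limited to -3 and 3. W-old replicate 7 is the highest column (median 1.16 over the 33 members other than globins) and H-MN1 replicate 5 the lowest (median -1.24).

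With MN1, the same knockout comparison gave no calls. Of 38 members tested, 0 passed in H-MN1 against W-MN1, as did 0% of all 13525 genes tested with edgeR. At an unadjusted p under 0.05 there were 5 members, all lower, against 10% of all genes. DESeq2 called 1 member, Tfrc (adjusted p = 0.0248), and limma-trend 0. The median log2 fold change of the members was -0.25, against 0.03 over all genes. It was -1.33 without H-MN1 replicate 8, -0.53 without W-MN1 replicate 3, -0.13 without H-MN1 replicate 5, and 0.30, with 0 calls, without W-MN1 replicates 2 and 4, whose Mn1 level goes against their label. The last fit leaves 1 W-MN1 library, which is assumed to vary like the others.

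Single libraries differed widely within these groups. Gata1 stood at 34.9, 106 and 37.7 CPM in W-MN1 and at 64.5, 62.4 and 63.4 CPM in H-MN1 (0.13 ± 0.38, edgeR adjusted p = 0.937). The high value was that of W-MN1 replicate 3, the one library of its group with a high Mn1 level, and the H-MN1 values lay between it and the other W-MN1 values. Klf1 did not follow Gata1 there, at 38.4, 30.1 and 48.1 CPM in W-MN1 and 15.2, 21.7 and 46.5 CPM in H-MN1 (-0.47). Nfe2 stood at 241, 217 and 249 CPM in W-MN1 and at 140, 168 and 228 CPM in H-MN1 (-0.41).

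W-MN1 replicate 3 was the lowest of its group for 26 of the 33 members other than globins. It was the highest for Car2, at 1515 CPM against 321 and 395 CPM, where H-MN1 stood at 545, 716 and 819 CPM (-0.01). Slc4a1 stood at 69.1, 20.9 and 80.2 CPM in W-MN1 and at 7.69, 19.6 and 65.3 CPM in H-MN1 (-0.86 ± 0.92, edgeR adjusted p = 0.828). Among the H-MN1 libraries, replicate 5 was the lowest for 28 of the 33 and replicate 8 the highest for 26. The largest estimates, of Kel (-2.26), Add2 (-2.24) and Rhag (-2.21), had SEs of 0.94, 1.11 and 0.94.

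Tfrc was the one member whose groups did not overlap, where 8.33% of all genes were lower and 6.73% higher without overlap (8.64 and 6.94% on the TMM scale). It stood at 314, 121 and 286 CPM in W-MN1 and at 110, 80.9 and 82.9 CPM in H-MN1 (-1.48 ± 0.43, edgeR adjusted p = 0.308). Without W-MN1 replicate 3 it passed (adjusted p = 0.0164), as did Cpox (-1.48, adjusted p = 0.0472). That fit sets H-MN1 against W-MN1 replicates 2 and 4, whose Mn1 level was low. Mn1 level and Hopx genotype cannot be told apart in it. In a fit of all 12 libraries Tfrc was the single call (adjusted p = 0.0392).

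For the globins, Hba-a1 stood at 390, 155 and 470 CPM in W-MN1 and at 86.2, 324 and 1149 CPM in H-MN1 (0.66 ± 0.97, edgeR adjusted p = 0.871). Hbb-b1 stood at 291, 109 and 341 CPM in W-MN1 and at 63.4, 170 and 574 CPM in H-MN1 (0.16 ± 0.90, adjusted p = 0.97). The H-MN1 libraries held both the lowest and the highest value, so the groups overlapped from end to end. Adult globins summed to 832, 318 and 981 CPM in W-MN1 and to 176, 569 and 2033 CPM in H-MN1, an 11.5-fold range. Alas2 stood at 18.1, 7.18 and 20.0 CPM in W-MN1 and at 4.20, 9.23 and 32.2 CPM in H-MN1 (0.04). Of the 63 other pathway genes 0 passed, while DESeq2 called 6. Without W-MN1 replicate 3, 6 passed, in the fit that leaves only W-MN1 libraries with a low Mn1 level. Markers of other cells differed as well. All 3 eosinophil markers (summed level 2246 to 3214 CPM in W-MN1 and 74.3 to 1214 CPM in H-MN1) were lower in every H-MN1 library than in any W-MN1 library. So were 7 of 9 island macrophage markers (390 to 642 CPM and 283 to 406 CPM) and 5 of 7 B cell markers (38.8 to 268 CPM and 28.5 to 40.2 CPM). On the TMM scale the last 2 counts were 6 and 4. Over all genes, 8.33% were lower without overlap, or 8.64% on the TMM scale. None of these markers passed, and the macrophage and B cell sums overlapped. The neutrophil (40424 to 91291 CPM and 26536 to 89923 CPM), megakaryocyte (84.4 to 445 CPM and 109 to 266 CPM), basophil and mast cell (1292 to 3116 CPM and 570 to 5006 CPM) and endothelial (58.2 to 140 CPM and 59.3 to 159 CPM) sums overlapped too. Of their markers, 1 of 11 neutrophil and 2 of 4 endothelial were lower without overlap. Their part in these values was not tested.

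**Figure D4:**
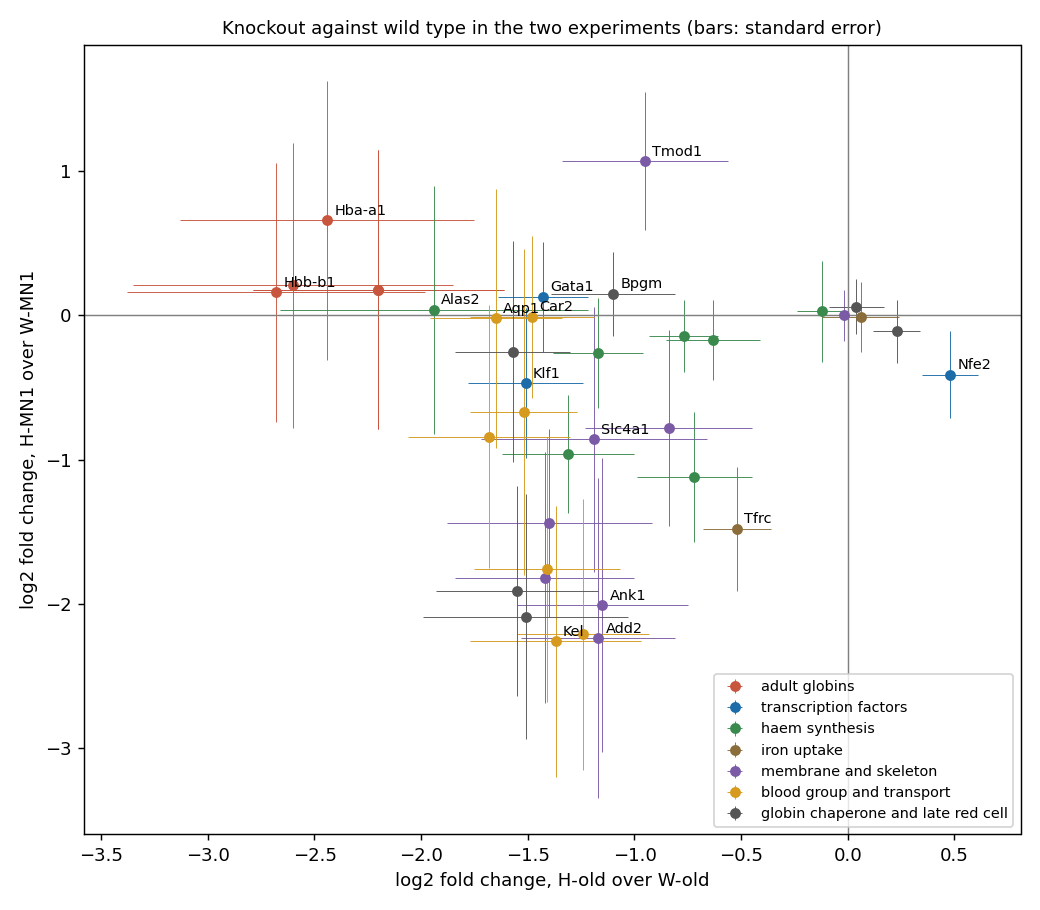
Log2 fold change of each tested member in H-MN1 against W-MN1 (vertical axis) and in H-old against W-old (horizontal axis), from separate libraries, with bars of 1 SE and colours by role. Most members lie below 0 on the horizontal axis, while the adult globins lie at -2.68 to -2.20 there and at 0.16 to 0.66 on the vertical axis.

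Whether the knockout effect differed between the experiments was tested as an interaction over all 12 libraries. No member passed (0 of 38, with 3.32% of 13937 genes called by edgeR, 1.92% lower and 1.41% higher), 6 had an unadjusted p under 0.05 where 22.2% of all genes did, and limma-trend called 0. The estimates were 1.55 ± 0.48 for Gata1 (adjusted p = 0.0963) and 3.08 ± 1.26 for Hba-a1 (adjusted p = 0.179), positive where the knockout estimate was higher with MN1 than without. DESeq2 called 2 members, Gata1 (1.52, adjusted p = 0.0292) and Tmod1. Without W-MN1 replicate 3 edgeR called 4, Gata1 (2.10, adjusted p = 0.00187), Tfrc, Car2 and Bpgm, and without H-MN1 replicate 8 it called Nfe2. Leaving out W-MN1 replicate 3 removes the only W-MN1 library with a high Mn1 level. Mn1 level and Hopx genotype then cannot be told apart within the MN1 libraries. Of the other pathway genes, Nt5c3 (-1.51, adjusted p = 0.0129) and the iron regulatory protein Ireb2 (0.76, adjusted p = 0.0463) passed. Without W-old replicate 7 neither did, and the higher call was lost with RLE size factors, with no low-count filter, with globins left out of the library totals, and on leaving out any 1 of 8 other libraries.

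The groups with MN1 were also set against those of the same labelled Hopx genotype without it, where labelled MN1 status, labelled age and deposited table cannot be told apart. In W-MN1 against W-old, 35 of 38 members had an estimate below 0, with a median of -0.85 against 0.06 over all genes. None passed (0 of 38; 3.58% of all genes, 2.58% lower and 1% higher), 17 had an unadjusted p under 0.05 where 24.4% of all genes did, limma-trend called 0, and DESeq2 called 9, all lower. Among the adult globins the estimates ran from -3.23 to -2.10, with Hbb-b1 at -3.23 ± 0.90 (edgeR adjusted p = 0.0689) and Hba-a1 at -2.95 ± 0.93 (adjusted p = 0.0958). The 3 W-MN1 libraries lay below all W-old libraries for Hba-a1 and Hbb-b1, and for 14 members in all, where 13.4% of all genes did, or for 17 on the TMM scale, where 19.4% did. The 2 W-MN1 libraries with a low Mn1 level are among them. Alas2 had an estimate of -2.32 (adjusted p = 0.128). Of the markers of other marrow cells, 4 of 7 megakaryocyte and platelet markers and 1 of 7 B cell markers passed, all lower. No marker of the other lists passed, and the part of these cells was not tested. Without H-MN1 replicate 8, which enters this fit through the shared spread, 8 members passed, and without H-MN1 replicate 5, 1.

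In H-MN1 against H-old, where all 3 MN1 libraries had a high Mn1 level, the members split. By edgeR, 7 were lower (16.8% of all genes were) and 3 higher (21.1% of all genes), with a median of -0.50 against 0.08 over all genes. An unadjusted p under 0.05 was reached by 17 members and by 49.9% of all genes. The median was -1.36 without H-MN1 replicate 8, -0.17 without H-MN1 replicate 5, -0.26 without H-MN1 replicate 7, -0.27 without H-old replicate 9 and -0.20 with library totals alone. These H-old libraries are those of the comparison without MN1, so the 2 sets of values are not independent. Gata1 was higher (1.77 ± 0.35, adjusted p = 0.00507), from 13.5 to 15.3 CPM in H-old to 62.4 to 64.5 CPM in H-MN1. Car2 was higher as well, from 117 to 197 CPM to 545 to 819 CPM (1.73 ± 0.50, adjusted p = 0.0227). Tmod1, at 3.76, 2.62 and 1.87 CPM in H-old and 4.73, 9.05 and 12.7 CPM in H-MN1, was the third (1.37 ± 0.48, adjusted p = 0.0437). The groups did not overlap for Gata1 and Car2, nor for Tmod1 in CPM, but on the TMM scale those of Tmod1 did. Of all genes, 42.1% were higher without overlap in CPM and 27.7% on the TMM scale. The call of Tmod1 was lost with limma-trend, with no low-count filter and on leaving out any of 8 libraries, and that of Car2 without any H-old library or H-MN1 replicate 7. Klf1 did not pass (0.37, adjusted p = 0.518).

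The lower members in H-MN1 were Nfe2 (-0.92 ± 0.24, edgeR adjusted p = 0.0139), Tfrc (-1.48 ± 0.34, adjusted p = 0.00891), Bnip3l (-0.59), Dmtn (-2.0), Rhag (-2.10), Hemgn (-1.70) and Trim10 (-2.21). Tfrc stood at 173, 195 and 219 CPM in H-old and at 110, 80.9 and 82.9 CPM in H-MN1, without overlap. Of all genes, 12.5% were lower without overlap in CPM and 22.4% on the TMM scale. Band 3, ankyrin and beta-adducin had estimates of -1.83, -1.92 and -1.94 that did not pass. None of the globins passed, with Hba-a1 at 0.14 ± 0.87 and Hbb-b1 at -0.41 ± 0.82, and none of the 7 haem enzymes did. Only Gata1 and Tfrc of the 10 called members passed in every alternative fit that was run. Without H-MN1 replicate 8 there were 22 calls. There were 2 without H-old replicate 9, 3 without H-MN1 replicate 7, 4 without H-old replicate 3, 5 without H-old replicate 10 or H-MN1 replicate 5, and 6 without W-old replicate 6 or W-MN1 replicate 2. Library totals alone gave 4 lower and 3 higher.

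Of the 63 other pathway genes, 12 were lower (19%) and 14 higher (22.2%), close to the shares of all genes (16.8% and 21.1%). With library totals alone the split was 6 and 25, and with RLE size factors 16 and 12. There were 16 calls without H-MN1 replicate 5, 14 without H-old replicate 3, 13 without H-MN1 replicate 7 and 11 without H-old replicate 9. Of the 15 genes of erythroid transcription and erythropoietin signalling, 5 were higher, among them Lmo2 (0.68, edgeR adjusted p = 0.00643), 3 were lower and 7 did not pass. E2f2 was lower, at 307, 302 and 270 CPM in H-old and 41.5, 75.3 and 127 CPM in H-MN1 (-2.16, adjusted p = 0.00785). Stom (0.70) and Ireb2 (1.25) were higher, and Fth1 (-1.06), Mkrn1 (-0.85) and Nt5c3 (-1.77) lower. Markers of other lineages moved here too. Cpa3 (5.42) and Ms4a2 (4.82) of the 4 mast cell and basophil markers were higher. The other 2 did not pass, and 1 of them had an estimate below 0 (-1.23). The summed level of all 4 was 570 to 5006 CPM in H-MN1 against 163 to 371 CPM in H-old. Of 11 neutrophil markers, 7 were lower (26536 to 89923 CPM in H-MN1). Of the 7 megakaryocyte markers 3 were higher and 4 lower (109 to 266 CPM in H-MN1). Gata1, Tal1, Lmo2, Gfi1b and Car2 are also known in mast cell or megakaryocyte lineages, and the part of those cells was not tested.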

How the data were processed

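Bone marrow RNA of 12 mouse libraries in 4 groups of 3 was sequenced from stranded mRNA libraries, per the labels' protocols. The authors deposited expected counts, TPM and FPKM per gene symbol; the expected counts come from RSEM 1.2.28 with Bowtie2 2.3.4.3 on mm10, per the submitters' processing notes, and the gene annotation and any use of strand in counting are not given in the sources used here. The deposited TPM values ranked genes by level per length and the FPKM values were not used. The 43 members were found by symbol, and the members and the pathway and marker lists were chosen with earlier results of these data known. Expected counts were rounded to whole numbers, filtered with filterByExpr and TMM-scaled, and the tests were those of edgeR 4.0.16 in R 4.3.3 (robust quasi-likelihood F test, Benjamini-Hochberg threshold 0.05). Each knockout comparison used its own 6 libraries, and the others contrasts of 1 fit of all 12. CPM are counts scaled to 1000000 per library; totals were 16544407 to 28409046 counts. Alternatives were DESeq2 1.42.0, limma 3.58.1 (limma-trend), RLE size factors, other filters, globins left out or summed, all 12 libraries, single libraries left out and, added after seeing the data, library totals without TMM. The computations were tested on simulated data. Named genes are the globins above a mean of 1 CPM, the 2 highest and 2 most changed called members of each role, members called against the majority, Gata1, Klf1, Alas2 and Slc4a1, and the 3 highest and any opposing genes of each pathway list. Gene positions are from GENCODE M21 (GRCm38), and upstream windows from RefSeq (GRCm38.p6); windows matched 30 members.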

Additional observations from a re-analysis of the deposited data

How the results depend on the processing

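No paired analysis was possible because the groups compared share fewer than 2 replicate numbers. Leaving out 1 library at a time gave 8 to 33 member calls in H-old against W-old, 0 to 2 in H-MN1 against W-MN1, 0 to 4 for the difference of the knockout effects, 0 to 8 in W-MN1 against W-old and 2 to 22 in H-MN1 against H-old. For the pathway lists it gave 21 to 38, 0 to 6, 0 to 16, 0 to 6 and 11 to 37 calls. The 16 calls of the difference came without W-MN1 replicate 3, the only W-MN1 library with a high Mn1 level, and 5 came without H-MN1 replicate 8. Fitting H-old against W-old on all 12 libraries left 1 member and 10 pathway genes. Fitting H-MN1 against W-MN1 that way gave 1 and 3. DESeq2 called 1 member and 6 pathway genes in H-MN1 against W-MN1, 2 and 9 for the difference, 9 and 3 in W-MN1 against W-old, and 17 members in H-MN1 against H-old. With no low-count filter, 6 members passed in the last. The 2 pathway genes called for the difference became 1 with RLE size factors, with no filter or with globins left out of the totals, 4 with limma-trend and 7 with library totals alone. The summed level of the members other than globins in H-old was 1944 CPM and 2260 on the TMM scale. Library totals alone moved the median of all genes by -0.18 in H-old against W-old, 0.21 for the difference, 0.16 in W-MN1 against W-old and 0.37 in H-MN1 against H-old. For Aqp1 in H-MN1 against H-old, the estimate of 0.00 became -1.48 (edgeR adjusted p = 0.0476) without H-MN1 replicate 8 and 0.48 without H-MN1 replicate 5. Of the estimates of single members, 3203 stayed on the same side of the threshold, 133 of them with a change of sign in members that passed in neither fit, 142 lost the threshold and 87 gained it. Apart from changes set by fewer samples or genes, the cause was not tested. Groups of 3 limit every result, and members under the filter were not tested.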

Other observations

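The 2 adult globin chains were not in the same ratio in all groups. Summed alpha copies over summed beta copies gave 0.875, 0.876 and 0.925 in W-old, 1.03, 0.953 and 0.951 in H-old, 1.07, 1.06 and 1.11 in W-MN1 and 1.15, 1.57 and 1.52 in H-MN1. The highest W-old value lay below every other library, and every H-MN1 value lay above all others, while H-old and W-MN1 lay between. These are ratios of expected counts, whose division among near-identical copies is uncertain, with the equal Hbb-b2 and Hbb-bt rows both in the beta sum, and the ratio was not tested.

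Embryonic globins were close to 0 throughout. Hbb-bh2 had 0 counts in all 12 libraries, which allows up to 3 counts in each, for counting error only. H-MN1 replicate 8, the H-MN1 library with the highest adult globin sum (2033 CPM), held 10 counts of Hbb-bh1 and 8 of Hbb-y, and W-MN1 replicate 3 held 6 of Hbb-y.

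Ranked per length by the deposited TPM, Hba-a1 (7086 ± 5891, SD, n = 3) and Hbb-b1 (5494 ± 4544) were the highest members in W-old. They were followed by the equal rows Hbb-bt and Hbb-b2 (827 ± 600 each) and Car2 (425). These SDs are spreads between libraries. Within each W-old library Hba-a1 lay above Hbb-b1, at 2097 and 1589 TPM in replicate 1, 5578 and 4412 in replicate 6, and 13584 and 10481 in replicate 7. Summed by chain, alpha and beta stood closer, at 2183 and 2172 TPM in replicate 1 and 5899 and 5859 in replicate 6. In replicate 7 the sums were 14263 and 13427 TPM. The values of single rows depend on the division of reads among copies, which is uncertain, and these differences were not tested. Slc4a1 (73.8), Klf1 (53.9) and Alas2 (51.9) stood well below the globins on this scale.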
